A study of Mus musculus with 6 samples.

Results

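Terminal differentiation transcription factors are the DNA-binding proteins that drive keratinocytes out of the basal layer and into the granular and cornified layers of the epidermis. The set described here holds 9 genes, Pou3f1, Pou2f3, Prdm1, Zfp750, Klf4, Grhl3, Ovol1, Cebpa and Cebpb, found by gene symbol among the 30386 genes of the expression table. Pou3f1 and Prdm1 were chosen by their difference in CPM between the knockout and wild type, so that difference is given as a description and without a test. The other 7 were included for their known role. All 9 had a mean of at least 10 counts per 1e6 reads (CPM), the minimum for testing.

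The study compared back skin epidermis of mouse embryos at E18.5 between a genotype labelled p63alphaKO (3 libraries) and wild type (WT, 3 libraries). By its title, the series asks about the part that p63 isoforms play in keeping up the epidermis. p63, encoded by Trp63, is the master transcription factor of stratified epithelia, and its alpha isoforms carry the longest carboxy terminus. How the allele was made, the strain, the sex and whether a library held 1 embryo or several are left unstated by the labels. No agent or treatment is named for either group. Epidermis was parted from dermis with Dispase before the cells were made single with Accutase. Sequencing covered the 3′ ends of transcripts. Reads counted in the listed genes, as recovered from the deposited values, numbered 3350442 to 3539604 in p63alphaKO libraries and 2564407 to 4474764 in WT libraries. As a check of the labelled tissue, the suprabasal keratin gene Krt10 was at 37145 to 53981 CPM in p63alphaKO libraries and 36990 to 60845 CPM in WT libraries.

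The epidermis renews itself from a basal layer of dividing cells. Cells that leave it pass through spinous and granular stages, build a cornified envelope and a lipid barrier, and die as flattened squames. The 9 factors act at different steps of that path. The C/EBP proteins couple exit from the cell cycle to commitment, OVOL1 restrains the growth of cells that have begun to differentiate, and the POU proteins, KLF4, GRHL3, ZFP750 and PRDM1 act in the suprabasal layers, where several of them are needed for a working skin barrier in mice.

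In p63alphaKO epidermis the mean level of Pou3f1 was 3.51-fold lower than in WT, Prdm1 was higher, and none of the 7 factors that had been included for their role alone passed the test. Of all 7464 tested genes, 123 passed (limma, adjusted p under 0.05), which is 1.65%, with 0.469% higher and 1.18% lower. Of the 7 others, 0 passed with limma, edgeR or DESeq2 (edgeR called 1.1% and DESeq2 4.25% of all tested genes), and 1, Zfp750, had an unadjusted p under 0.05, against 15.6% of all tested genes. Groups that did not overlap between genotypes were found for 0 of these 7, against 21.0% of all tested genes (7.6% higher and 13.4% lower).

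Regulatory sequence could be shown for 5 members, Prdm1, Klf4, Grhl3, Cebpa and Cebpb, from RefSeq's start sites on GRCm38.p6. The 250 bases before the start were searched on both strands for the octamer ATGCAAAT and its core TGCAAA, which POU proteins bind, and for CACCC (KLF proteins), AACCGG (grainyhead-like proteins), TTGCNNAA (C/EBP proteins), GAAAGT (PRDM1), CCGTTA (OVOL proteins) and TATAAA (the TATA box). The 2 windows below are printed because each holds the recognition letters of a factor that differed between the genotypes, POU in the case of Prdm1 and PRDM1 in the case of Cebpa. Matches are in capitals, and both are read 5′ to 3′ on the strand of the gene. The Prdm1 window is chr10:44458749-44458998 (minus strand) and the Cebpa window chr7:35119043-35119292 (plus strand). The RefSeq start behind the Prdm1 window lies inside the span of the gene in GENCODE, not at its outer end.
Prdm1: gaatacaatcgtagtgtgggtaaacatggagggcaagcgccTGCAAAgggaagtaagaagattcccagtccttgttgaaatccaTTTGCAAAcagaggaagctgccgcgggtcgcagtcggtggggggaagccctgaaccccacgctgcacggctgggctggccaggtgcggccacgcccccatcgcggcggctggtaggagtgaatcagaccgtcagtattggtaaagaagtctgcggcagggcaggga
Cebpa: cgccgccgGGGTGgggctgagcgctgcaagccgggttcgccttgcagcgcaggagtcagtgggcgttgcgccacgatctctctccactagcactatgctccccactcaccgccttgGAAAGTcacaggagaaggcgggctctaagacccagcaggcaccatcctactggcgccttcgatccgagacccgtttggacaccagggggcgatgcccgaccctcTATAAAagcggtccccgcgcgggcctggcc

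The Prdm1 window held the POU core 3 times, at 209, 166 and 164 bases before the start, of which the last 2 overlap on opposite strands. This core occurs in 13.5% of the 32851 windows of that length in the RefSeq table, and the full octamer, which none of the 5 member windows held, in 1.6%. The Cebpa window held the KLF letters at 242 bases, the PRDM1 letters at 134 bases and a TATA box at 30 bases before the start, which occur in 52.0%, 12.3% and 12.4% of windows. Grhl3 held the KLF letters 3 times and Cebpb 2 times, while the Klf4 window held none of the motifs. A match describes letters in the sequence and is neither a binding site nor a cause.

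Pou3f1 encodes a POU domain protein, also known as Oct-6, that is made in suprabasal keratinocytes and in Schwann cells. In mice it acts redundantly with Pou2f3 in epidermal stratification. The gene (ENSMUSG00000090125) lies on chromosome 4 at 124656807 to 124660655, plus strand, mm10, and has a single exon. Pou3f1 was at 88.9, 86.5 and 89.5 CPM in p63alphaKO replicates 1, 2 and 3, against 150, 288 and 492 CPM in WT replicates 1, 2 and 3. Every p63alphaKO library lay below every WT library, and the WT libraries were spread widely while the p63alphaKO libraries were nearly equal.

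The means were 88.3 ± 1.59 CPM in p63alphaKO and 310 ± 172 CPM in WT (SD, n = 3 each), a 3.51-fold lower level in p63alphaKO and a log2 fold change of -1.64 on the log2(CPM + 1) scale (SE 0.30). The highest WT value was 3.27 times the lowest, while in p63alphaKO that ratio was 1.03, from 297 to 315 reads per library. The SD of the log2 values in WT was larger than that of 95.5% of tested genes, and in p63alphaKO larger than that of 1.14% of them. The value therefore hung on which WT library was counted. It was -1.23 without WT replicate 3 and -2.08 without WT replicate 1.

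**Figure D1:**
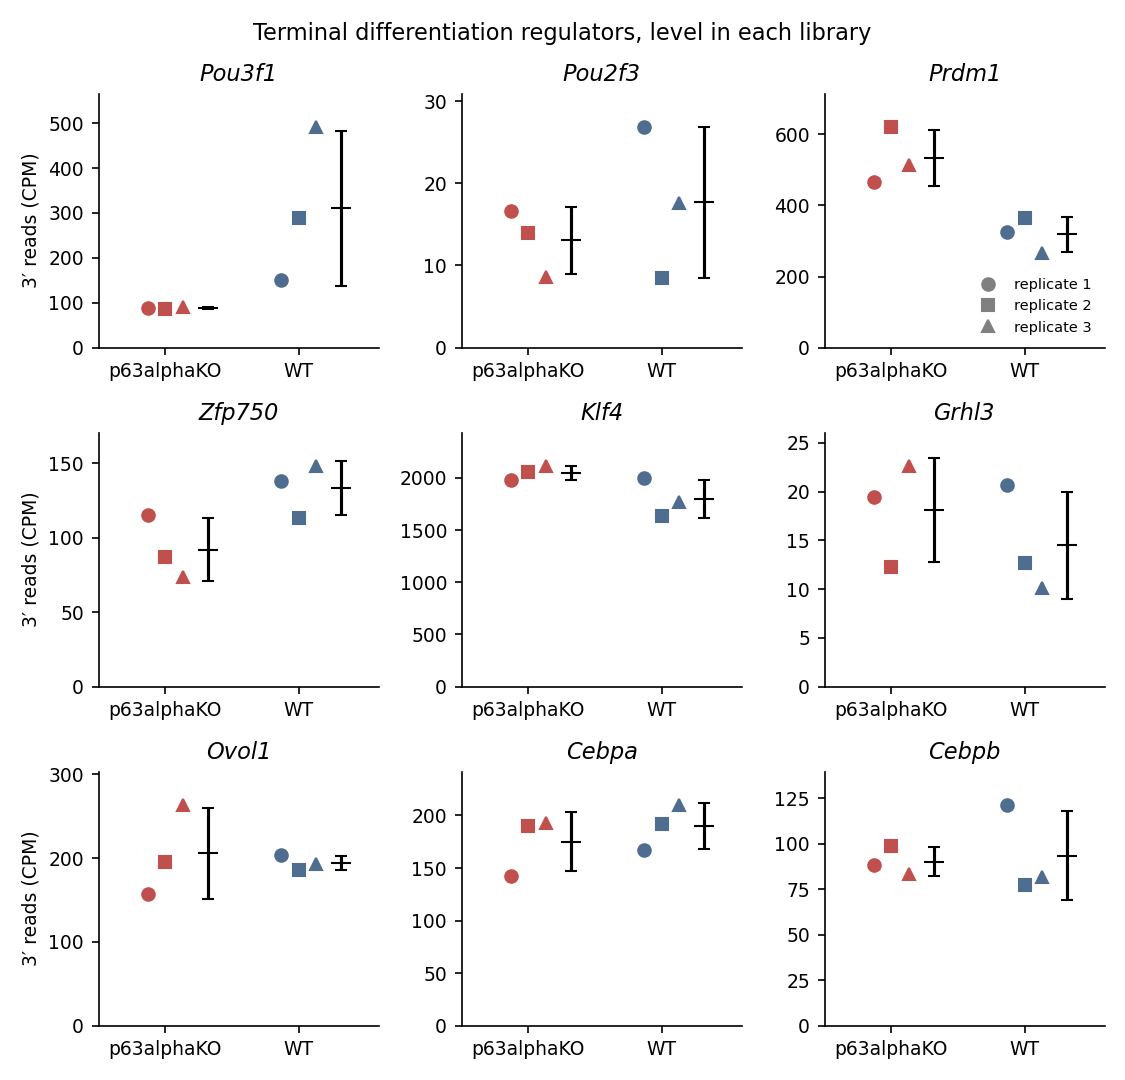
3′ read level (CPM) of the 9 regulators in each library, with p63alphaKO left of WT; marker shape gives the replicate number and the black bar the mean ± SD of 3 libraries. The Pou3f1 values of p63alphaKO lie between 86.5 and 89.5 CPM, below all WT values, Prdm1 is higher in every p63alphaKO library, and in the other 7 panels the groups overlap.

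Since these are tissue libraries, fewer cells that express a gene and less of its mRNA per cell cannot be told apart. Markers of some cell types other than keratinocytes, namely fibroblasts, skeletal muscle and erythroid cells, were lower in the same libraries as Pou3f1. The summed level of 12 fibroblast markers was 483 to 885 CPM in p63alphaKO and 2435 to 5486 CPM in WT. All 12 were lower on average, and 9 of the 10 tested were called lower, where 1.18% of all tested genes were. The sum of 10 skeletal muscle markers was 54.8 to 102 CPM in p63alphaKO and 418 to 2558 CPM in WT, with 10 of 10 lower. That of 8 erythroid markers was 559 to 1769 CPM in p63alphaKO and 1903 to 3441 CPM in WT, with 7 of 8 lower.

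Within WT the order differed from that of Pou3f1. WT replicate 1 had the highest fibroblast and erythroid sums and the lowest Pou3f1 level, and WT replicate 2 held most of the muscle signal. The 8 Schwann cell markers summed to 131 to 174 CPM in p63alphaKO and 111 to 139 CPM in WT. Most of that came from Erbb3, which melanocytes also express. Melanocyte markers, 7 in all, summed to 338 to 481 CPM in p63alphaKO and 191 to 330 CPM in WT, with 6 of 7 higher on average. The part of these cells in the Pou3f1 difference was not tested beyond those values.

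**Figure D2:**
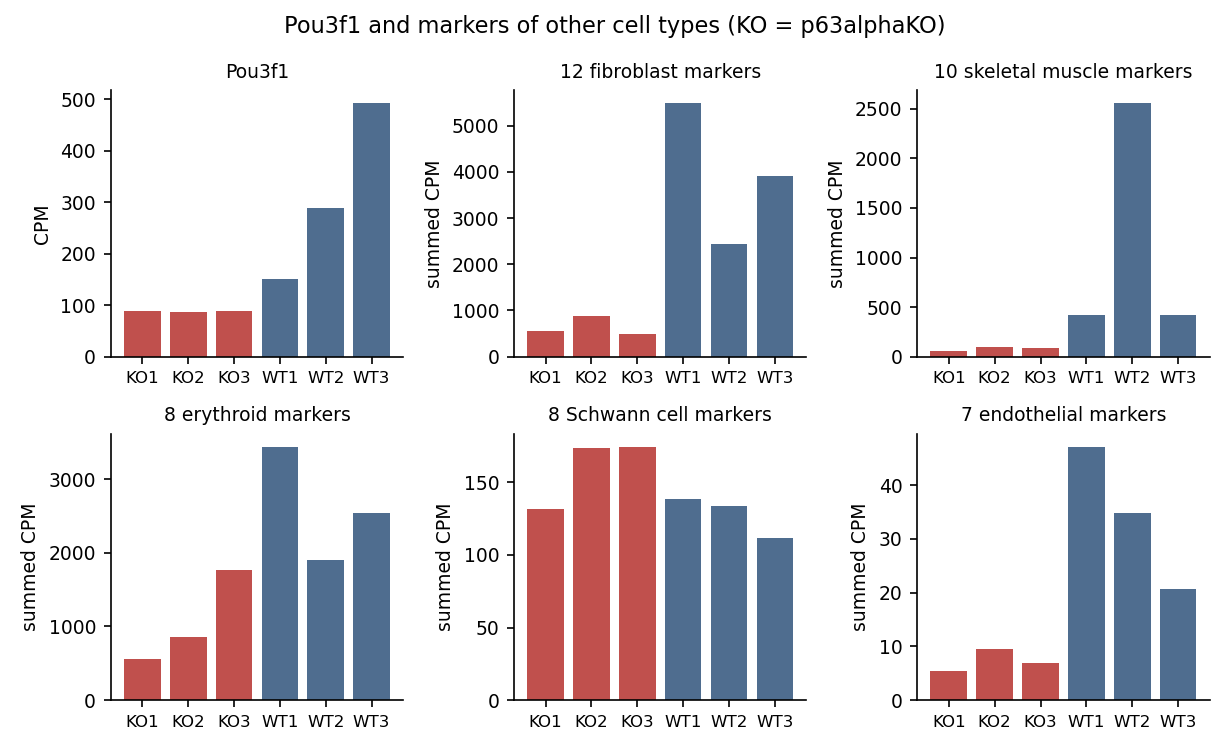
Pou3f1 (CPM) and the summed CPM of marker lists for 5 other cell types in each library, p63alphaKO (KO) left of WT. Fibroblast, muscle, erythroid and endothelial sums are higher in each WT library than in each p63alphaKO library, as Pou3f1 is, but Pou3f1 is lowest among WT libraries in replicate 1, where the fibroblast sum reaches 5486 CPM.

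Pou2f3, which encodes the related POU protein Skn-1a, did not show this pattern. It was a low-level gene at 16.7, 14.0 and 8.65 CPM in p63alphaKO replicates 1, 2 and 3, against 26.9, 8.48 and 17.6 CPM in WT replicates 1, 2 and 3. The 2 groups overlapped, and WT libraries were both the highest and the lowest of the 6. The log2 fold change was -0.32 (adjusted p = 0.777), and its 95% interval, -1.21 to 0.58, covers a 2.32-fold fall as well as a 1.49-fold rise. These levels rest on 29 to 59 reads in p63alphaKO libraries and 38 to 69 reads in WT libraries, and the highest WT value was 3.17 times the lowest. Pou2f3 is also the defining factor of tuft cells, of whose 8 markers Gnat3, Il25 and Chat were at 0 in all 6 libraries and none reached the minimum for testing.

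Prdm1 encodes BLIMP1, a zinc finger repressor that acts in the granular layer on the way to cornification and, elsewhere, in sebaceous gland and lymphoid cells. The gene (ENSMUSG00000038151) lies on chromosome 10 at 44437177 to 44528501, minus strand, mm10, and its coding transcripts have 7 or 8 exons. Prdm1 was at 466, 621 and 513 CPM in p63alphaKO replicates 1, 2 and 3, against 325, 364 and 265 CPM in WT replicates 1, 2 and 3. No WT library reached the lowest p63alphaKO library, and the spread was similar in the 2 groups.

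The Prdm1 means were 533 ± 79.5 CPM in p63alphaKO and 318 ± 49.8 CPM in WT (SD, n = 3 each), a 1.68-fold higher level and a log2 fold change of 0.74 (SE 0.17). Leaving out 1 library gave values between 0.62 and 0.85. Endothelial and immune markers, of cell types that can also express Prdm1, were at a summed 5.35 to 9.61 and 23.6 to 36.4 CPM in p63alphaKO, against 20.8 to 47.1 and 28.8 to 51.9 CPM in WT. Of these markers, 7 of 7 endothelial genes had a lower mean in p63alphaKO, while 3 immune genes had a higher and 8 a lower one, and Cd3e was at 0 in all libraries. Their part in the Prdm1 difference was not tested. The 12 hair follicle and sebaceous markers summed to 1005 to 1132 CPM in p63alphaKO and 616 to 1244 CPM in WT. Of these, 6 had a higher and 5 a lower mean in p63alphaKO, and Mc5r was at 0 in all libraries. Among the 8 that were tested, 1 was called lower, where 1.18% of all tested genes were.

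The ratio of both genes within a library is given as a description only. Both were picked for their change, in opposite directions, so a difference in their ratio follows from that choice. Prdm1 had 5.24, 7.18 and 5.73 times as many reads as Pou3f1 in p63alphaKO replicates 1, 2 and 3, against 2.16, 1.26 and 0.54 times as many in WT replicates 1, 2 and 3. In WT replicate 3 Pou3f1 was thus the more abundant of the pair.

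Genes of which Prdm1 is reported to bind the loci in keratinocytes, Nfat5, Fos, Dusp16 and Myc, were looked up. Fos, an immediate early subunit of AP-1, fell to 457, 350 and 398 CPM in p63alphaKO replicates 1, 2 and 3, against 645, 723 and 615 CPM in WT replicates 1, 2 and 3 (log2 fold change -0.72, adjusted p = 0.0335). The Fos groups did not overlap, but the call was lost when any 1 p63alphaKO library or WT replicate 2 was left out (adjusted p from 0.0762 to 0.175), and also with rescaled libraries, another filter or edgeR (0.0568 to 0.0876). Nfat5, an osmotic stress factor, had a value of -0.38 (adjusted p = 0.319) and Dusp16, a MAP kinase phosphatase, one of 0.24 (adjusted p = 0.616). Myc was under the minimum for testing, at 3.88 to 7.62 CPM in p63alphaKO libraries and 2.83 to 14.8 CPM in WT libraries.

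Zfp750 and Klf4 form a step of the path known from human keratinocytes, where the human counterpart of ZFP750 is a p63 target that induces KLF4. Zfp750 (chromosome 11, 121510978 to 121519333, minus strand) was at 115, 86.8 and 73.7 CPM in p63alphaKO replicates 1, 2 and 3, against 138, 113 and 148 CPM in WT replicates 1, 2 and 3. The groups overlapped by a narrow margin, through p63alphaKO replicate 1 and WT replicate 2. The log2 fold change was -0.55 (SE 0.21) and did not pass the test (adjusted p = 0.211), with a 95% interval of -0.98 to -0.11 before adjustment for the number of genes. The value was -0.40 without p63alphaKO replicate 3 and -0.72 without p63alphaKO replicate 1.

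Klf4, a zinc finger factor without which newborn mice lack a working barrier, was by far the most abundant of the 9. It (chromosome 4, 55527143 to 55532466, minus strand) was at 1980, 2052 and 2117 CPM in p63alphaKO replicates 1, 2 and 3, against 1994, 1638 and 1768 CPM in WT replicates 1, 2 and 3. WT replicate 1 lay within the p63alphaKO values, and the other WT libraries below them. The log2 fold change was 0.19 (SE 0.14, adjusted p = 0.577), and the 95% interval of -0.12 to 0.50 corresponds to a level in p63alphaKO between 0.922 and 1.41 times that of WT. These levels rest on 7013 to 7098 reads in p63alphaKO libraries and 5118 to 7337 reads in WT libraries. Reads of Klf4 outnumbered those of Zfp750 by 17.1, 23.7 and 28.7 times in p63alphaKO replicates 1, 2 and 3, against 14.5, 14.4 and 11.9 times in WT replicates 1, 2 and 3. This ratio did not overlap between the groups. It was chosen after the values were seen, and with 3 against 3 libraries an exact permutation test cannot go below p = 0.1.

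Grhl3, a grainyhead-like factor that activates barrier genes such as the transglutaminase gene Tgm1, was a low-level gene. It (chromosome 4, 135541888 to 135573630, minus strand) was at 19.5, 12.2 and 22.7 CPM in p63alphaKO replicates 1, 2 and 3, against 20.6, 12.7 and 10.1 CPM in WT replicates 1, 2 and 3. Both groups covered almost the same range. The log2 fold change of 0.32 (adjusted p = 0.733) had a 95% interval of -0.45 to 1.09, which reaches a 2.13-fold higher level in p63alphaKO. Its levels rest on 42 to 76 reads in p63alphaKO libraries and 32 to 57 reads in WT libraries. Tgm1 itself had a value of 0.37 (adjusted p = 0.459). It was named for its link to Grhl3 after its value was seen.

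Ovol1, a zinc finger repressor that in mice limits Myc in differentiating keratinocytes, was at 157, 196 and 264 CPM in p63alphaKO replicates 1, 2 and 3, against 203, 186 and 193 CPM in WT replicates 1, 2 and 3. The WT libraries lay close together, and the p63alphaKO libraries lay on both sides of them. The means were 206 ± 54.0 CPM in p63alphaKO and 194 ± 8.55 CPM in WT (SD, n = 3 each), a log2 fold change of 0.05 (adjusted p = 0.941) with a 95% interval of -0.36 to 0.46. Without p63alphaKO replicate 3 the value was -0.15. Ovol1 (chromosome 19, 5549136 to 5560646, minus strand) overlaps exons of 2 annotated genes on the opposite strand, AC126029.1 and Gm31166. The deposited values list neither under these names. Reads of the 3 genes may be mixed if strand was ignored in counting.

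The basic leucine zipper genes Cebpa and Cebpb, which in mouse epidermis act together in the exit from the cell cycle and in the onset of spinous keratins, differed by less than their spread. Cebpa (chromosome 7, 35119293 to 35121928, plus strand) was at 143, 190 and 193 CPM in p63alphaKO replicates 1, 2 and 3, against 168, 192 and 210 CPM in WT replicates 1, 2 and 3. Its log2 fold change was -0.12 (adjusted p = 0.805) with a 95% interval of -0.51 to 0.27. The groups overlapped for most of their range.

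Cebpb (chromosome 2, 167688915 to 167690418, plus strand) was at 88.6, 99.0 and 83.2 CPM in p63alphaKO replicates 1, 2 and 3, against 122, 77.5 and 81.5 CPM in WT replicates 1, 2 and 3. Its value of -0.02 (adjusted p = 0.976) had a 95% interval of -0.47 to 0.42. All p63alphaKO libraries fell inside the range of WT, which WT replicate 1 stretched upward. Cebpb shares exonic sequence with Tmem189 on the opposite strand, at 22.9 to 26.2 CPM in p63alphaKO and 26.6 to 30.4 CPM in WT, and the 2 cannot be told apart without strand. The opposite-strand partners of Pou3f1 (Gm2164) and Cebpa (Gm45091) were listed at 0 in all 6 libraries.

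**Figure D3:**
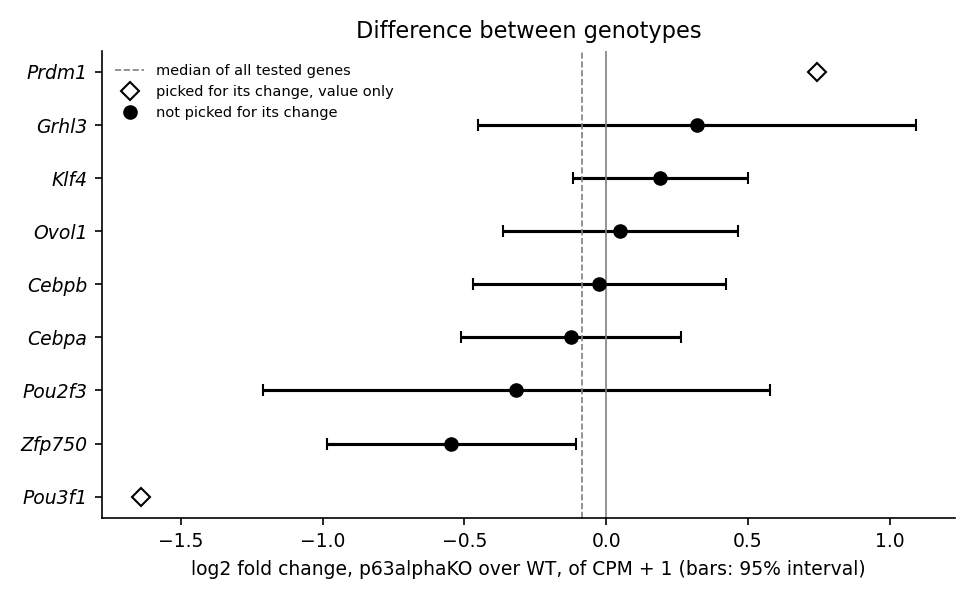
Log2 fold change, p63alphaKO over WT, of each regulator on the log2(CPM + 1) scale, with the 95% interval of the limma fit for the 7 genes that were not picked for their change; the dashed line is the median of all tested genes, -0.09. The values run from -1.64 for Pou3f1 to 0.74 for Prdm1, the intervals of Grhl3 and Pou2f3 are the widest, and that of Klf4 is the narrowest.

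The scale of the comparison bears on small values. The middle value over all 7464 genes, as log2 fold change, was -0.09 with the deposited scaling, 0.02 with TMM factors and 0.05 with upper quartile factors. Rescaling moved each member by a like amount. Klf4 was at 0.30 and 0.33, Zfp750 at -0.44 and -0.41, Prdm1 at 0.85 and 0.88 and Pou3f1 at -1.53 and -1.51 with TMM and upper quartile factors. Cebpb turned to 0.08 and 0.11, and Cebpa to -0.02 and 0.01, so no direction can be given for these 2.

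The levels of the 9 genes can be set in order because reads from mRNA 3′ ends do not grow with transcript length, although the priming of each 3′ end may differ. In CPM, the order by mean in p63alphaKO was Klf4, Prdm1, Ovol1, Cebpa, Zfp750, Cebpb, Pou3f1, Grhl3 and Pou2f3. In WT it was Klf4, Prdm1, Pou3f1, Ovol1, Cebpa, Zfp750, Cebpb, Pou2f3 and Grhl3. Pou3f1 thus stood at place 7 of 9 in p63alphaKO and at place 3 of 9 in WT. In p63alphaKO, Ovol1 and Cebpa overlapped, Zfp750, Cebpb and Pou3f1 lay together between 73.7 and 115 CPM, and Grhl3 and Pou2f3 overlapped. In WT, Prdm1 and Pou3f1 overlapped, as did Pou3f1 with Ovol1 and Cebpa. Klf4 stood clear of all others in every library. The 9 genes together made up 3075 to 3364 CPM in p63alphaKO and 2881 to 3186 CPM in WT, most of it Klf4.

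The genes most like Pou3f1 and Prdm1 across the 6 libraries were found by the Euclidean distance between log2(CPM + 1) values, each centred on its gene's mean, over 7457 other tested genes. The closest to Pou3f1 was Krt15, a keratin of basal cells, at a distance of 0.51 against a median of 2.29 over all genes. Krt15 was at 375, 340 and 368 CPM in p63alphaKO replicates 1, 2 and 3, against 742, 1572 and 1728 CPM in WT replicates 1, 2 and 3, so it too was lowest among WT libraries in replicate 1 and highest in replicate 3. The ratio of Pou3f1 to Krt15 reads lay between 0.237 and 0.254 in p63alphaKO libraries and between 0.183 and 0.285 in WT libraries. Within p63alphaKO the highest level was 1.03 times the lowest for Pou3f1 and 1.10 times for Krt15. Within WT these figures were 3.27 and 2.33. Krt15 was chosen as the closest gene in these same libraries, so a steady ratio follows from that choice. Next came Rassf10, Slc35c1, Gas1 (a growth arrest gene) and Sema3f, at distances from 0.64 to 0.83. Gas1 averaged 21.3 ± 1.94 CPM in p63alphaKO and 91.8 ± 26.9 CPM in WT (SD, n = 3 each), while Slc35c1 was at 5.71 ± 0.56 CPM in p63alphaKO and 14.9 ± 5.66 CPM in WT.

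The closest to Prdm1 were Ero1l and Qsox1, which encode enzymes that form disulfide bonds, then Pgm2l1, Orm1 and the tight junction gene Cldn4, at distances from 0.19 to 0.28 against a median of 1.33. Qsox1 averaged 258 ± 20.9 CPM in p63alphaKO and 164 ± 26.8 CPM in WT, and Orm1 118 ± 5.46 CPM in p63alphaKO and 65.7 ± 8.03 CPM in WT (SD, n = 3 each). Like Prdm1, all 5 were lowest in WT replicate 3 and were higher in each p63alphaKO library than in each WT library. The distance ranks patterns in 6 libraries that share 1 group difference, and was not tested.

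**Figure D4:**
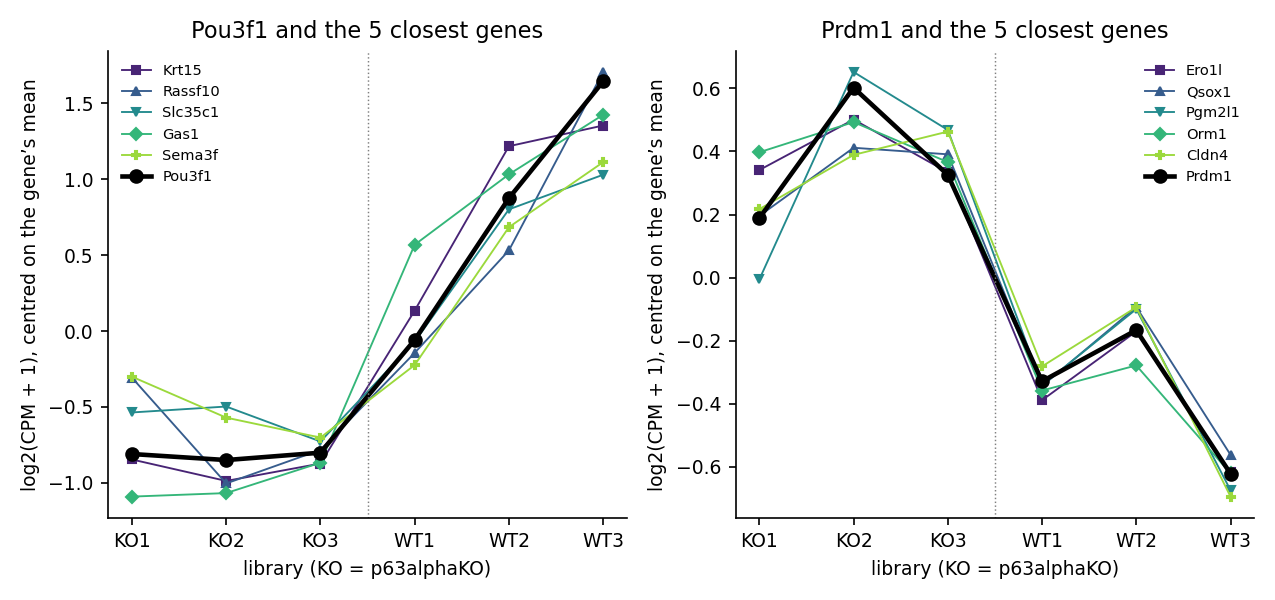
Log2(CPM + 1), centred on each gene's mean, of Pou3f1 (left) and Prdm1 (right) in black and of the 5 genes closest to each in colour, with p63alphaKO libraries (KO) left of WT. Krt15, at a distance of 0.51, follows Pou3f1 through low p63alphaKO values and the spread of WT replicates 1 to 3, and the genes near Prdm1 share its low value in WT replicate 3.

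The relatives of the 9 factors by gene family gave no called gene. Of 32 POU, PRDM, KLF, grainyhead-like, OVOL and C/EBP genes, 20 could be tested, 10 had positive and 10 negative values, and 0 were called with limma, edgeR or DESeq2, against 1.65% of all tested genes with limma. An unadjusted p under 0.05 was reached by 2 of the 20, against 15.6% of all tested genes, so neither share stands out from that of all genes. The median was 0.08 (-0.01 without WT replicate 3), against -0.09 over all tested genes. Pou3f2, Ovol3 and Cebpe were at 0 in all libraries. The largest values were those of Klf2 (-0.83, adjusted p = 0.385), Klf9 (0.74, adjusted p = 0.323) and Klf7 (0.72, adjusted p = 0.184), and Klf9 was called without WT replicate 2.

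Klf5, a KLF factor made mostly in basal cells, and Klf6 were the most abundant of these relatives, at lower levels than Klf4. Klf5 averaged 1770 ± 145 CPM in p63alphaKO and 1357 ± 232 CPM in WT, and Klf6 1160 ± 121 CPM in p63alphaKO and 896 ± 369 CPM in WT (SD, n = 3 each), with adjusted p of 0.239 and 0.414. The Klf5 groups overlapped narrowly, at 1614 CPM in p63alphaKO replicate 3 and 1623 CPM in WT replicate 2.

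Among 26 other regulators of epidermal differentiation, 25 were tested and 0 were called with limma or edgeR, against 1.65% and 1.1% of all tested genes. There were 6 with an unadjusted p under 0.05 (15.6% of all tested genes), 18 positive and 7 negative values, and the median was 0.19 (0.09 without p63alphaKO replicate 1). Foxo1, a forkhead factor of insulin signalling, was at 79.6, 68.4 and 64.4 CPM in p63alphaKO replicates 1, 2 and 3, against 39.0, 44.2 and 42.5 CPM in WT replicates 1, 2 and 3. Its groups did not overlap, its value of 0.74 did not pass (adjusted p = 0.0743), and it was called with TMM factors, upper quartile factors and DESeq2. Vdr, the vitamin D receptor, differed by 1.01 (adjusted p = 0.323), and Hopx, the homeodomain-only factor, by 0.82 (adjusted p = 0.156). Rora and Casz1 were the most abundant of the list. Rora differed by 0.07 (adjusted p = 0.874) and Casz1 by 0.19 (adjusted p = 0.581). Hopx was called without WT replicate 1.

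The products that these factors are known to switch on were looked up next. Of 36 structural and enzyme genes of the upper layers, 33 were tested, and 2 passed, both higher, where 0.469% of all tested genes passed as higher. There were 25 positive and 8 negative values. The median was 0.37, against -0.09 over all tested genes, and the groups did not overlap for 18, all of them higher in p63alphaKO, against 7.6% of all tested genes higher without overlap. The 2 calls were Lce1k and Kprp, of the cornified envelope locus on chromosome 3. Kprp rose to 1197, 1422 and 1634 CPM in p63alphaKO replicates 1, 2 and 3, against 1005, 580 and 446 CPM in WT replicates 1, 2 and 3 (log2 fold change 1.14, adjusted p = 0.0260). Lce1k was at 98.8, 114 and 112 CPM in p63alphaKO replicates 1, 2 and 3, against 68.2, 49.4 and 29.3 CPM in WT replicates 1, 2 and 3 (1.21, adjusted p = 0.0316).

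Both calls were lost when p63alphaKO replicate 1, 2 or 3 or WT replicate 2 was left out. The adjusted p then reached 0.181 for Lce1k and 0.196 for Kprp. So they were with a filter at a mean of 50 CPM (0.0568 for each) and with edgeR, which called Rptn instead, and that of Kprp with no filter (0.055). Sprr1b, Sprr2d and Sprr1a had larger values, of 1.64, 1.43 and 1.41, that did not pass (adjusted p = 0.0959, 0.115 and 0.157). WT replicate 3 was the lowest of the 6 libraries for Sprr1a, Sprr1b, Sprr2d, Sprr2h, Lce1a1, Lce1c, Lce1k, Lce3c and Kprp, with 135 CPM for Sprr1b against 701 and 897 CPM in WT replicates 1 and 2. Without WT replicate 3 the median of the 33 genes was 0.30 and 3 were called, Kprp, Lce1k and Sprr1b. Of the spinous keratins, Krt10 differed by -0.10 (adjusted p = 0.871) and Krt1 by -0.01 (adjusted p = 0.989). Some members of the Sprr and Lce families are near-identical copies, and how reads were split among such copies is uncertain.

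Of 20 genes of the basal layer and of progenitor growth, 19 were tested and 3 were called, Trp63 higher, Krt15 and Id2 lower, where 1.65% of all tested genes were called, and the median was 0.28 (0.12 without WT replicate 1). Id2, an inhibitor of differentiation, fell to 31.9, 20.7 and 31.9 CPM in p63alphaKO replicates 1, 2 and 3, against 93.9, 66.8 and 44.4 CPM in WT replicates 1, 2 and 3 (log2 fold change -1.21, adjusted p = 0.0456). Its call held without WT replicate 3 but not without any other single library (adjusted p from 0.0910 to 0.160), nor with rescaled libraries, no filter or edgeR (0.0697 to 0.0851). Trp63 itself was at 143, 146 and 136 CPM in p63alphaKO replicates 1, 2 and 3, against 63.9, 71.7 and 87.2 CPM in WT replicates 1, 2 and 3. It had a value of 0.93 (adjusted p = 0.0192), lost without any 1 p63alphaKO library (0.0854 to 0.0998), and Krt15 one of -1.80 (adjusted p = 0.00164), called without each library in turn. The count per gene of Trp63, the targeted gene, does not tell the alpha forms from the others. Among the rest, Lama3, of the basement membrane, differed by 0.76 (adjusted p = 0.135) and was called with DESeq2. Ccnd1, a cyclin, differed by -0.67 (adjusted p = 0.303). The most abundant of the list were Krt14, a basal keratin, which differed by 0.39 (adjusted p = 0.417), and Sfn, which differed by 0.28 (adjusted p = 0.443). Sfn is an epithelial cell cycle inhibitor and no marker of the basal layer, but it counts in the list and in its median.

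**Figure D5:**
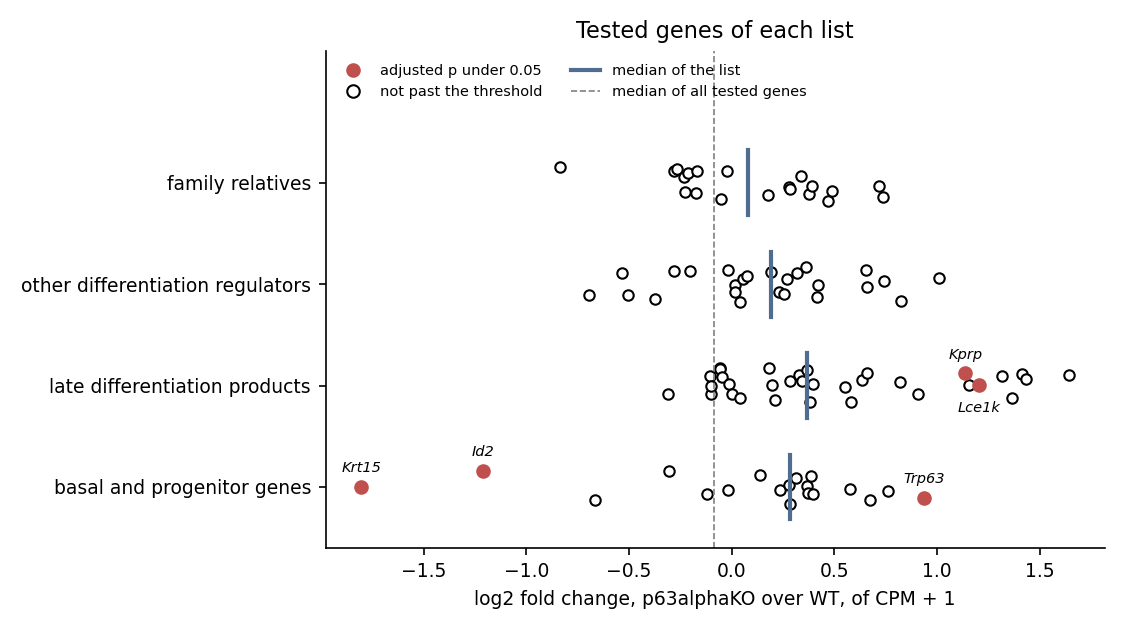
Log2 fold change, p63alphaKO over WT, of the tested genes in 4 lists of related factors and of their known outputs, with called genes filled and named, the median of each list as a bar and the median of all tested genes dashed. No family relative and no other regulator was called, 2 late differentiation products and Trp63 were called higher, and Krt15 and Id2 were called lower.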

How the data were processed

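Libraries were made by 3′ digital mRNA sequencing from epidermis, per the labels' protocols. The submitters' processing notes name STAR, HTSeq and mm10. No source used here gives their versions, the annotation, the strand setting or whether molecular identifiers were counted. The deposited values are CPM, which the authors scaled to each library's total (column sums of 999157 to 999401). They were whole multiples of 1 read for 100% of values (tolerance 0.0055 CPM), and the recovered reads went to edgeR 4.0.16 and DESeq2 1.42.0 as alternatives.

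Genotypes were compared two-sided in limma 3.58.1 (R 4.3.3), with a trend in the variance, on log2(CPM + 1). Genotype was the only term. Genes under a mean of 10 CPM were left out, which kept 7464, and p was adjusted over these by Benjamini-Hochberg. The log2 scale with its pseudocount of 1 understates changes of low genes. All fold changes are p63alphaKO over WT. A mean of 10 CPM is 25.7 to 44.8 reads, and 3 reads are 0.670 to 1.17 CPM (counting error only). A limma p-value sets the genotype difference against the variation between libraries, moderated by that of all tested genes. Nothing says that replicates were separate embryos, so this variation may not be that between embryos.

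The members, the gene lists and the tests were chosen with earlier results of these data known. From each list of regulators and their outputs, the genes named were those called, the 3 others with the largest change and the 2 with the highest level, and for Pou3f1 and Prdm1 the 5 genes closest in pattern. Exceptions are marked, and not every gene so chosen is reported here. Positions are from GENCODE mouse release 21 (GRCm38), where 30348 of 30386 gene IDs were found. The fits were tested on simulated data. Replicate numbers are shared by the 2 groups but did not pair the libraries, so the block is an alternative only. Alternatives were 2 rescalings, 2 pseudocounts, 2 filters, 2 count models, the block, and each of 6 libraries left out.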

Additional observations from a re-analysis of the deposited data

How the results depend on the processing

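The number of called genes over the table was 36 with a minimum mean of 50 CPM and 317 with DESeq2, against 123, and 37 to 186 with 1 library left out. The count over all 9 regulators rests on the 2 genes picked for their change, so that it supports nothing. It was 2, and 1 with no filter, with a minimum mean of 50 CPM or with edgeR, and 0 to 2 with 1 library left out. The 7 regulators not picked for their change gave no call in any of the 15 alternatives. The other regulators gave 1 call with TMM factors, upper quartile factors and DESeq2, against 0, and 0 to 2 with 1 library left out, and family relatives 0 to 1. The late differentiation products gave 1 call with no filter, 0 with a minimum of 50 CPM, 1 with edgeR and 5 with DESeq2, against 2. They gave 0 to 6 with 1 library left out. Basal genes gave 2 calls with either rescaling, either other filter or edgeR and 4 with DESeq2, against 3. They gave 1 to 3 with 1 library left out.

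Signs turned for Cebpa (0.013 with upper quartile factors) and Cebpb (0.081 with TMM, 0.11 with upper quartile factors, 0.021 with edgeR, 0.035 with DESeq2). With 1 library left out the ranges were -0.21 to 0.018 for Cebpa, -0.14 to 0.18 for Cebpb, -0.15 to 0.23 for Ovol1 and -0.74 to 0.040 for Pou2f3. The other regulators kept their sign: Pou3f1 at -2.08 to -1.23, Prdm1 0.62 to 0.85, Zfp750 -0.72 to -0.40, Klf4 0.13 to 0.27 and Grhl3 0.11 to 0.59. The cause was not tested.

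With the replicate number as a block 127 genes were called. Equal numbers correlated at -0.0234, 0.066 and -0.108 over 7464 genes, so they share only a number. The block ended the Fos call (adjusted p = 0.0567) and changed no other call named here. Pou2f3 and Grhl3 rest on under 80 reads per library, and a minimum mean of 50 CPM leaves them and Id2 without a value.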
